A study of Homo sapiens with 21 samples.

Results

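The comparison described here sets 9 late arrays of EGF-treated MCF10A cells, 3 each at 120, 240 and 480 min, against 9 early arrays, 3 each at 20, 40 and 60 min. These are 18 of the 21 arrays of the study, chosen by their labelled time. The other 3 arrays are of untreated cells at 0 min. They have no weight in the comparison and enter only the estimate of the spread between replicates. MCF10A is an immortalised, non-tumorigenic line of human mammary epithelial cells that needs epidermal growth factor (EGF) to proliferate. Cells of all 7 groups, the untreated ones included, went 24 h in medium with no EGF and then a second 24 h in starvation medium holding 1% horse serum, and the 6 EGF groups then received 20 ng/ml EGF. The labels describe the replicates as biological triplicates of 1 cell line, so p-values measure the spread between these cultures, and 3 arrays per time set the precision. With no untreated arrays at the later times, EGF cannot be told apart from handling or time in culture, and fewer cells of a type cannot be told apart from less RNA per cell.

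EGF binds its receptor EGFR, a receptor tyrosine kinase, and activates the RAS, RAF, MEK and ERK kinase cascade and PI3K signalling to AKT. ERK and the factors it phosphorylates first switch on immediate early genes, many of which encode transcription factors with short-lived mRNAs. Their products, with feedback inhibitors and mRNA decay factors, then shape a later set of genes for adhesion, proteolysis and growth, while AKT keeps FOXO transcription factors out of the nucleus.

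Values are gene signals on the log2(intensity + 16) scale, each the median over the gene's probesets on an exon array, and a change is the mean of the 3 late time means minus the mean of the 3 early time means. A change of 1 is a 2-fold difference on that scale, and changes of dim genes are understated. A gene was called higher or lower late when its adjusted p from limma was under 0.05. Values after ± are standard errors (SE) of a change unless marked as SD. Arrays of 1 time correlated across genes at 0.944 to 0.988, and array medians lay between 20.44 and 20.56 intensity units. The array index, which is the median log2 signal of probesets of 1 gene minus that of unnamed probesets, averaged 1.31 ± 0.06 in late arrays and 1.30 ± 0.04 in early arrays (SD, n = 9 each). That difference of 0.011 gave p = 0.65 in a two-sided exact permutation test. The keratins KRT5 and KRT14, which mark basal epithelium, had medians of 12.46 and 11.40 in late arrays and of 12.44 and 11.39 in early arrays. Other basal markers did change, as of 16 basal and squamous markers 5 were called higher and 1 lower late. The leukocyte marker PTPRC had a median of 5.59 in late arrays and 5.70 in early arrays, where the lower limit for keeping a probeset was 5.18. Most such markers were brighter, as the mean of 8 endothelial and leukocyte markers was 6.0 to 6.12 in late arrays.

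Of 16614 genes tested, 2822 (17.0%) were higher and 1972 (11.9%) were lower late than early, or 28.9% in all. Most of these changes were small. The median size of a called change was 0.33, the smallest was 0.14, and the median change over all genes was 0.03. A change of at least 0.5 was reached by 588 genes higher and 438 genes lower. A change of at least 1 was reached by 80 genes higher and 76 lower, and one of at least 2 by 5 genes higher and 8 lower. The 9 late arrays lay wholly above the 9 early arrays for 477 genes (2.87% of all tested) and wholly below them for 234 (1.41%). All were among the called genes. With the array index as a covariate 3522 genes were called higher and 2683 lower.

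**Figure D1:**
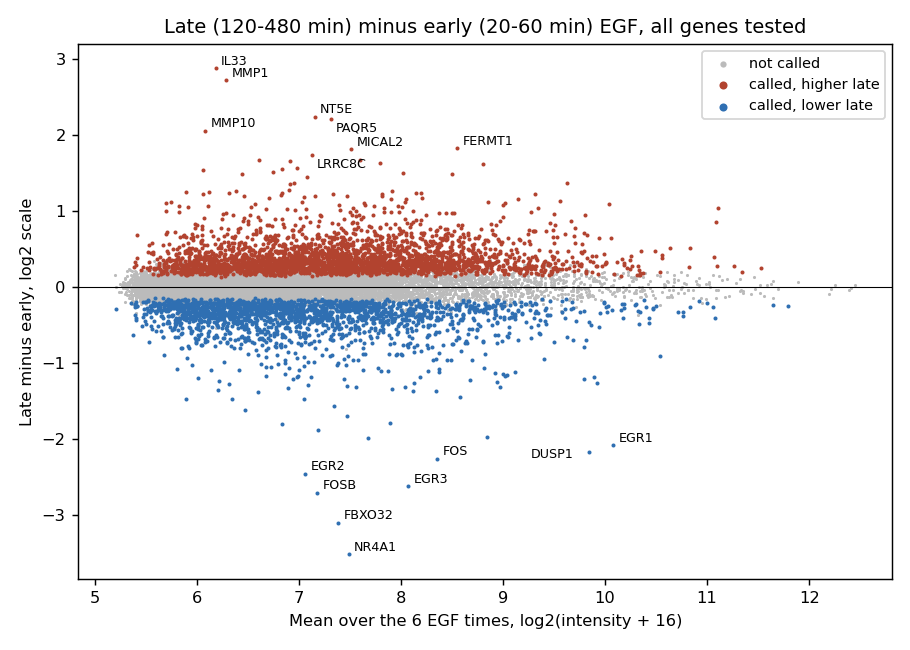
Change between the pools of 9 arrays (late minus early, y axis, log2 scale) against mean signal over the 6 EGF times (x axis, log2(intensity + 16)) for 16614 genes, 1 point each. The 2822 genes called higher late are red and the 1972 called lower late are blue, and the 8 largest changes with no overlap between the pools are named in each direction. The lower side reaches -3.52 for NR4A1 and the higher side 2.88 for IL33.

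The 15 largest falls with no overlap between the pools included many immediate early genes. NR4A1, an orphan nuclear receptor, had the largest fall. Its lowest, median and highest values were 5.29, 5.35 and 6.54 in late arrays, against 8.45, 9.49 and 9.72 in early arrays, a change of -3.52 ± 0.07 (adjusted p = 1.7e-19). The late arrays lay far below the early ones and mostly within the untreated range of 5.10 to 5.54, with only the 120 min mean of 6.48 well above it. NR4A2, of the same receptor family, ran from 5.63 to 6.74 with a median of 6.27 in late arrays, against 7.61 to 8.39 with a median of 8.21 in early arrays, a change of -1.89 ± 0.09 (adjusted p = 4.9e-13).

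FOSB and FOS, which pair with JUN proteins to form the AP-1 transcription factor, both fell. FOSB had values of 5.19, 5.41 and 6.89 (lowest, median, highest) in late arrays and of 7.95, 8.63 and 8.93 in early arrays, a change of -2.71 ± 0.07 (adjusted p = 2.6e-17). FOS had 6.63, 7.16 and 7.78 in late arrays and 7.88, 9.87 and 10.68 in early arrays, a change of -2.26 ± 0.12 (adjusted p = 6.9e-12). The FOS pools only just failed to touch, because the 60 min mean of 8.10 was already well under the 40 min mean of 10.46. The late FOS arrays still lay above all 3 untreated arrays, which ran from 5.06 to 5.99.

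The zinc finger factors EGR1, EGR2 and EGR3, early targets of serum response factor (SRF) and its ERK-activated partners, fell together. EGR3 had values of 5.51, 6.55 and 8.11 in late arrays and of 8.33, 9.82 and 10.04 in early arrays, a change of -2.62 ± 0.10 (adjusted p = 3.1e-14). EGR2 had 5.48, 5.70 and 6.14 in late arrays and 7.27, 8.43 and 8.79 in early arrays, a change of -2.46 ± 0.10 (adjusted p = 5.6e-14). EGR1 had 8.71, 9.03 and 9.50 in late arrays and 10.75, 11.08 and 11.44 in early arrays, a change of -2.08 ± 0.08 (adjusted p = 7.7e-15). None of the 3 overlapped between the pools. EGR3 was the slowest of them to come down, with a mean of 8.0 at 120 min and of 5.87 at 480 min.

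DUSP1, a phosphatase that inactivates MAP kinases, had values of 8.55, 8.72 and 9.02 in late arrays and of 10.32, 10.75 and 11.72 in early arrays, a change of -2.18 ± 0.08 (adjusted p = 3.5e-15). Its late arrays sat close together, and all lay above the highest untreated array at 8.0. CCN2 and CCN1 encode secreted matricellular proteins and are known targets of SRF and of the YAP coactivator. CCN2 had 7.45, 7.89 and 8.18 in late arrays and 9.25, 9.81 and 10.42 in early arrays, a change of -1.97 ± 0.09 (adjusted p = 2.8e-13). CCN1 had 6.72, 7.07 and 7.17 in late arrays and 8.18, 8.92 and 9.23 in early arrays, a change of -1.80 ± 0.07 (adjusted p = 6.9e-14).

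The other genes among the 15 had another shape. They were as high in untreated cells as in early ones, or nearly so, and low only late. FBXO32, a ubiquitin ligase subunit and FOXO target best known from muscle atrophy, had values of 5.09, 6.0 and 6.58 in late arrays and of 8.55, 8.97 and 9.34 in early arrays, a change of -3.10 ± 0.07 (adjusted p = 9.3e-19). Its untreated arrays lay at 9.05 to 9.23, and its mean was 6.40 at 120 min, 5.96 at 240 min and 5.14 at 480 min. VAV3, a guanine nucleotide exchange factor, had 5.47, 5.92 and 6.39 in late arrays and 7.27, 7.78 and 8.34 in early arrays, a change of -1.80 ± 0.09 (adjusted p = 4.0e-12), with untreated arrays at 7.62 to 7.70.

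TENT5B, a poly(A) polymerase of the non-canonical kind, had a median of 6.65 in late arrays and 8.25 in early arrays, a change of -1.70 ± 0.08. CMKLR2, a receptor for chemerin, had a median of 6.13 in late arrays and 8.15 in early arrays, a change of -1.57 ± 0.09. ZSCAN31, a zinc finger protein, had a median of 5.37 in late arrays and 6.88 in early arrays, a change of -1.47 ± 0.10. Adjusted p was 1.6e-12 for TENT5B, 8.2e-12 for CMKLR2 and 1.3e-10 for ZSCAN31. CMKLR2 was late even within the late pool, with a mean of 7.63 at 120 min against 6.10 at 240 min and 5.95 at 480 min.

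Over the 15 genes, 186 of 191 probesets were lower late. The drop between 60 and 120 min passed on its own for 12 of the 15, the others being FOS, CMKLR2 and ZSCAN31. In that pair of times 1.30% of all genes were called lower. The 15 genes were chosen on a change that takes in these probesets and this pair of times, so nothing is read from these counts. Genes of these shapes were not counted among all 76 genes lower by at least 1, only the position of the untreated mean. It lay below both pool means in 25 of the 76, between them in 36 and above both in 15. The untreated mean was nearer the late mean in 37 of the 76 and nearer the early mean in 39. Over all 1972 genes lower late it was nearer the late mean in 613 (31.1%), where 42.0% of all genes with a negative change had it so.

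**Figure D2:**
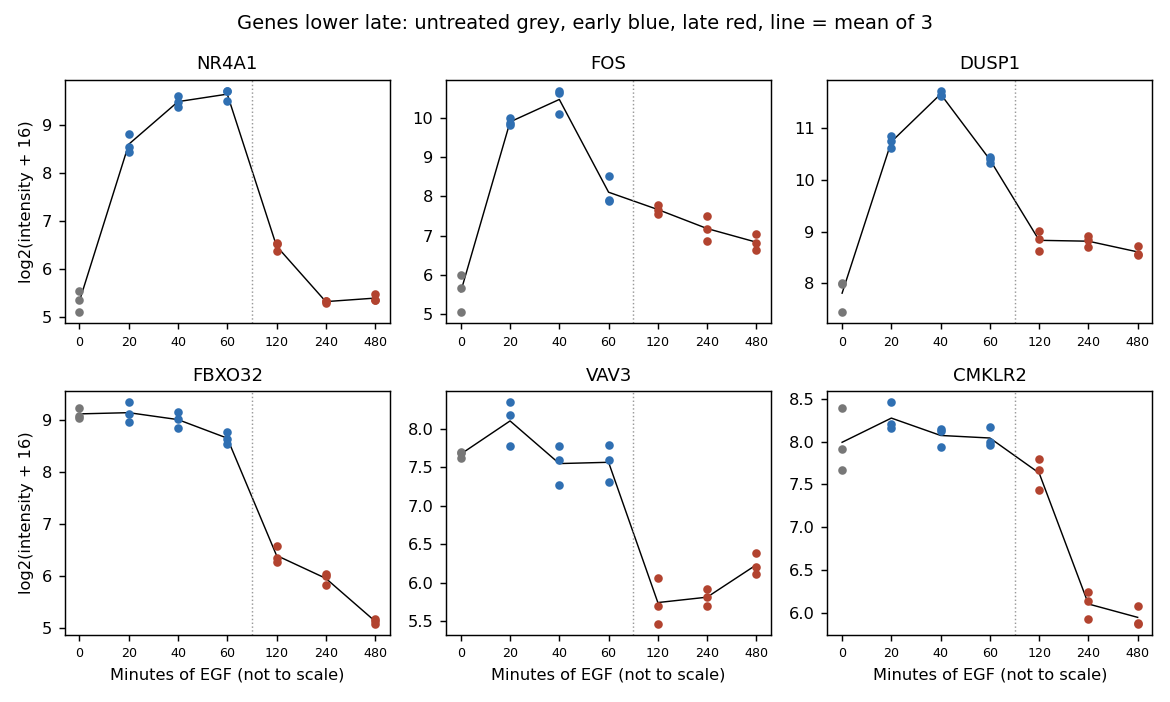
Signal of 6 genes lower late in each of the 21 arrays (y axis, log2(intensity + 16)) by minutes of EGF (x axis, not to scale), with untreated arrays grey, early arrays blue and late arrays red. Lines join means of 3 arrays and the dotted line parts early from late times. NR4A1, FOS and DUSP1 are high only at early times, while FBXO32, VAV3 and CMKLR2 are as high untreated as early and low late.

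The promoters of 3 of these genes are shown because EGR1, EGR2 and DUSP1 are the first of the list whose start regions hold a CArG box or a CRE (sequences were listed for 11 of the 15), elements bound in general by SRF and by CREB. Each is 250 bases upstream of a RefSeq start on GRCh38.p14, printed from 5′ to 3′ in the direction of transcription with the motif in capitals.
EGR2: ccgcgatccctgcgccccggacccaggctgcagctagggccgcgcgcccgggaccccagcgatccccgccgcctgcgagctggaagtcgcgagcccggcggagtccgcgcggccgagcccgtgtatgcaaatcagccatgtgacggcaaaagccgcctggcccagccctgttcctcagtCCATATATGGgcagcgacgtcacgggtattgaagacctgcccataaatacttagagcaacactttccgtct
EGR1: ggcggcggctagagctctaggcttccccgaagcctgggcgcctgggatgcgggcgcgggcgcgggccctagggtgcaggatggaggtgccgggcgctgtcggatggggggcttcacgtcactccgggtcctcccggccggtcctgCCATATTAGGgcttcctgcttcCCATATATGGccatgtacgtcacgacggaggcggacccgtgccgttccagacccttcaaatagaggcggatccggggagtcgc
DUSP1: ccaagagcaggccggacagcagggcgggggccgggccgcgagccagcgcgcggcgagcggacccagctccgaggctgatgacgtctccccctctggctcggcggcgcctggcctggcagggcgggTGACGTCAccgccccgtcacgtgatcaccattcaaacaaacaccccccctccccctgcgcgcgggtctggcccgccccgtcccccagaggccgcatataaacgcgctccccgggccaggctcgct
The EGR2 stretch is chr10:62816367-62816616 on the minus strand, and its CArG box CCATATATGG begins 71 bases before the start. The EGR1 stretch is chr5:138465229-138465478 on the plus strand, with CArG boxes CCATATTAGG and CCATATATGG that begin 105 and 83 bases before the start. The DUSP1 stretch is chr5:172771196-172771445 on the minus strand, with the CRE TGACGTCA 125 bases before the start.

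Both strands of 18903 such promoters of 13067 tested genes were searched for 5 motifs. A CArG box was found in 4.12% of the 97 promoters of genes lower by at least 1, in 4.41% of the 68 promoters of genes higher by at least 1, and in 1.15% of all promoters. A TATA box (TATAAA) was in 18.6% of the promoters of genes lower by at least 1, in 8.82% of those of genes higher by at least 1 and in 7.27% of all. The CRE was in 1.03% of the promoters of genes lower by at least 1, in none of the 68 of genes higher by at least 1 and in 2.11% of all. An AP-1 site (TGANTCA) was in 5.15% of the promoters lower by at least 1, in 7.35% of those higher by at least 1 and in 5.02% of all, and an EGR site (GCGNGGGCG) in 12.4%, 8.82% and 11.8% in the same order. Over all called genes the shares lay nearer those of all promoters, at 1.28% of promoters of genes lower and 1.05% of those of genes higher for the CArG box, and at 8.21% and 5.29% in the same order for the TATA box. The shares at a change of 1 rest on few promoters, were cut at a change of 1 after the values had been seen, and describe letters in a window, not binding.

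The 15 largest rises with no overlap included cytokines, metalloproteinases and a Sprouty protein. IL33, an alarmin cytokine of the interleukin 1 family stored in epithelial nuclei, rose the most. It had values of 6.63, 7.53 and 8.5 (lowest, median, highest) in late arrays and of 4.38, 4.69 and 5.27 in early arrays, a change of 2.88 ± 0.10 (adjusted p = 3.4e-15). IL1B, the secreted pro-inflammatory member of that family, had 9.25, 9.60 and 9.96 in late arrays and 7.63, 7.83 and 8.65 in early arrays, a change of 1.62 ± 0.07 (adjusted p = 4.4e-13). The early IL33 arrays spanned the untreated range of 4.44 to 4.74, with a mean of 5.06 at 60 min, while all early IL1B arrays were above the untreated ones, which reached 7.33. The early and untreated IL33 medians of 4.69 and 4.53 lay under 5.18, the lower limit for keeping a probeset. The IL33 change is thus measured from dim early signal, where changes are understated, and its size and rank are less certain.

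The metalloproteinases MMP1, an interstitial collagenase, and MMP10, a stromelysin, lie in 1 gene cluster and both rose. MMP1 had 6.47, 7.11 and 9.31 in late arrays and 4.63, 4.94 and 5.20 in early arrays, a change of 2.72 ± 0.07 (adjusted p = 5.6e-17). MMP10 had 5.90, 6.66 and 8.85 in late arrays and 4.68, 5.10 and 5.36 in early arrays, a change of 2.06 ± 0.08 (adjusted p = 5.6e-14). The early medians of 4.94 and 5.10 also lay under 5.18, the lower limit for keeping a probeset, so these changes too are measured from dim early signal. Both genes climbed through the late pool. The MMP1 means were 6.55, 7.14 and 9.27 at 120, 240 and 480 min, and the MMP10 means were 5.95, 6.69 and 8.69. ADAM19, a membrane-anchored metalloproteinase, had a median of 7.75 in late arrays and 6.10 in early arrays, a change of 1.66 ± 0.06 (adjusted p = 3.4e-15).

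NT5E, the surface enzyme CD73 that makes adenosine from AMP, had values of 6.95, 8.29 and 9.46 in late arrays and of 5.48, 6.12 and 6.39 in early arrays, a change of 2.24 ± 0.11 (adjusted p = 1.5e-12). PAQR5, a membrane progestin receptor, had 7.78, 8.68 and 8.86 in late arrays and 5.96, 6.18 and 6.45 in early arrays, a change of 2.21 ± 0.06 (adjusted p = 1.9e-16). LRRC8C, a subunit of volume-regulated anion channels, had 7.79, 8.04 and 8.14 in late arrays and 6.08, 6.25 and 6.47 in early arrays, a change of 1.74 ± 0.06 (adjusted p = 2.2e-15). PAQR5 and LRRC8C were nearly flat over the early times, with early means of 6.09 to 6.31 and 6.17 to 6.34.

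FERMT1, or kindlin 1, which activates integrins in epithelial cells, had values of 8.40, 9.45 and 10.40 in late arrays and of 7.35, 7.69 and 7.87 in early arrays, a change of 1.83 ± 0.06 (adjusted p = 3.4e-15). MICAL2, an enzyme that oxidises actin, had 8.11, 8.47 and 8.62 in late arrays and 6.26, 6.56 and 7.09 in early arrays, a change of 1.82 ± 0.08 (adjusted p = 1.5e-13). PLEK2, a pleckstrin that binds membranes and acts on actin, had a median of 8.45 in late arrays and 7.05 in early arrays, a change of 1.63 ± 0.09 (adjusted p = 7.3e-12). MICAL2 was already at its late level at 120 min, at 8.31, while FERMT1 went on from 8.61 at 120 min to 10.37 at 480 min.

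SPRY4, a Sprouty protein that inhibits RAS and ERK signalling, had values of 8.19, 8.35 and 8.90 in late arrays and of 5.64, 6.62 and 8.07 in early arrays, a change of 1.67 ± 0.09 (adjusted p = 5.7e-12). It was the gene of the 15 whose pools came closest, since its early means climbed through 5.74, 6.67 and 7.88. STC1, the secreted hormone stanniocalcin 1, had a median of 7.63 in late arrays and 6.14 in early arrays, a change of 1.57 ± 0.09 (adjusted p = 7.1e-12). ESRG, a transcript named for embryonic stem cells, had a median of 7.37 in late arrays and 5.77 in early arrays, a change of 1.67 ± 0.08 (adjusted p = 8.4e-13). MIG7, which rests on 3 probesets, had a median of 7.68 in late arrays and 5.99 in early arrays, a change of 1.55 ± 0.12 (adjusted p = 1.5e-09). Both names come from an older platform annotation, and whether these probesets measure those transcripts was not tested.

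Over the 15 genes, 238 of 251 probesets were higher late. All 15 passed between 60 and 120 min, where 2.18% of all genes were called higher. The genes were chosen on a change that takes in these probesets and this pair of times, so nothing is read from these counts. The untreated mean was nearer the early mean in all 80 genes higher by at least 1. It was nearer the early mean in 2498 of the 2822 genes higher late and nearer the late mean in 324 (11.5%), where 34.0% of all genes with a positive change had it nearer the late mean.

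Promoter sequences were listed for 9 of the 15, and of these 9 MMP10 alone held a CArG box, a CRE or an AP-1 site. Its 250 bases, chr11:102780629-102780878 on the minus strand of GRCh38.p14 (RefSeq), hold an AP-1 site, in capitals, that begins 67 bases before the start.
MMP10: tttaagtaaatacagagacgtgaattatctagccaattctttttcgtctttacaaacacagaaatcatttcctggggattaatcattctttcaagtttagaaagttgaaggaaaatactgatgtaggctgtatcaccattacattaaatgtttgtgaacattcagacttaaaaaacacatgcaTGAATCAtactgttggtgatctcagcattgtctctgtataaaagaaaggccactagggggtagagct
The site reads TGAATCA, and AP-1 is the factor that FOS and JUN proteins form.

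**Figure D3:**
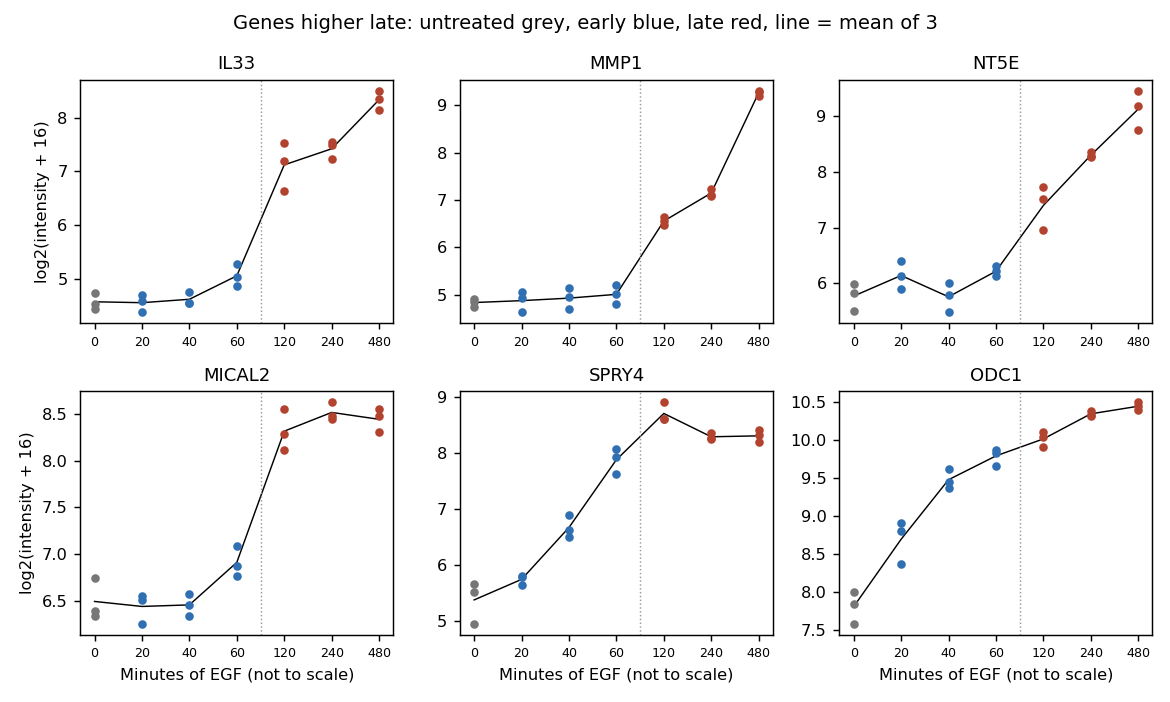
Signal of 6 genes higher late in each of the 21 arrays (y axis, log2(intensity + 16)) by minutes of EGF (x axis, not to scale), with untreated arrays grey, early arrays blue and late arrays red. Lines join means of 3 arrays and the dotted line parts early from late times. IL33, MMP1, NT5E and MICAL2 lie near the untreated level at 20 and 40 min, while SPRY4 and ODC1 climb within the early times.

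The pools are averages over unlike times, and the data show where that matters. The times within the late pool differed for 952 genes (5.73%) by the F-test, and those within the early pool for 269 (1.62%). Leaving out 480 min replicate 1 gave 633 genes among late times. Leaving out 20 min replicate 1 gave 175 genes among early times, and leaving out 20 min replicate 3 gave 428. Of the genes higher late, 347 (12.3%) also differed among late times and 110 (3.90%) among early times. Of those lower late, 394 (20.0%) differed among late times and 89 (4.51%) among early times. All 9 differences between a late and an early mean had the pooled sign in 2241 (79.4%) of the genes higher late and in 1476 (74.8%) of those lower late, which were called on the mean of these same differences, so nothing is read from these shares.

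Single pairs of times called fewer genes than the pools. The fewest were called between 60 and 120 min, with 363 higher (2.18%) and 216 lower (1.30%) at 120 min. The 480 against 20 min pair called the most, with 2037 higher (12.3%) and 1739 lower (10.5%) at 480 min. Against 20 and 40 min, 120 min had 6.18% and 6.48% of genes higher and 3.74% and 2.11% lower. At 240 min, 8.62%, 9.08% and 4.81% of genes were higher than at 20, 40 and 60 min, and 8.50%, 5.31% and 4.72% were lower. At 480 min, 12.2% and 7.47% were higher than at 40 and 60 min, and 7.18% and 6.80% were lower. The median SE of a change was 0.079 for the pools and 0.136 for a pair of times. The genes higher late had their highest mean most often at 480 min (1495 genes), then at 240 min (764) and 120 min (554), and their lowest most often at 40 min (1403). The genes lower late had their highest mean most often at 20 min (1180 genes), then at 40 min (394) and 60 min (382), and their lowest most often at 480 min (1077). Of all 16614 genes, the highest mean was at 480 min in 4549, at 240 min in 2268 and at 120 min in 2065. It was at 20 min in 3572, at 40 min in 2263 and at 60 min in 1897. The lowest mean was at 40 min in 3640 of all genes and at 480 min in 2902. The calls favour such times in advance, so nothing is read from these counts.

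**Figure D4:**
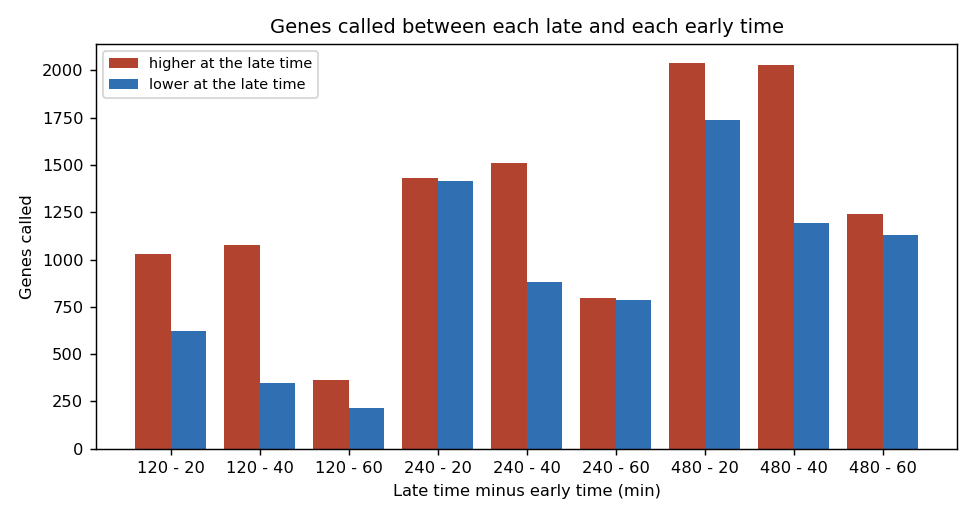
Number of genes called (y axis) between each late and each early time (x axis, late minus early, in min), with genes higher at the late time in red and lower in blue. Counts run from 363 higher and 216 lower for 120 minus 60 min to 2037 higher and 1739 lower for 480 minus 20 min.

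Some genes differed so much within a pool that the pooled value describes no time well. GEM, a small GTPase that restrains calcium channels, was called higher by 0.67 ± 0.08 (adjusted p = 2.2e-06), yet its means were 7.72 at 120 min, 5.68 at 240 min and 6.10 at 480 min. PLAT, tissue plasminogen activator, was called higher by 0.44 ± 0.05 (adjusted p = 1.4e-06), with means of 9.67, 9.54 and 8.31 at 120, 240 and 480 min against 8.31, 8.78 and 9.12 at 20, 40 and 60 min. GEM was high at 1 late time and PLAT at all but the last. With 120 min left out of the pool the change in GEM was 0.06 (adjusted p = 0.68), and with times counted as spread (2 pools as the model) that in PLAT was no longer called (adjusted p = 0.14). MMP1, MMP10 and FERMT1, described above, were the other genes higher late that varied most among the late times.

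On the lower side, PTGS2, the inducible cyclooxygenase, had values of 5.91, 6.71 and 7.40 in late arrays and of 7.11, 9.16 and 9.31 in early arrays, a change of -1.99 ± 0.09 (adjusted p = 4.1e-13). The pools overlapped only because the 20 min mean was 7.54, against 9.23 and 9.24 at 40 and 60 min. NR4A3, the remaining NR4A receptor, ran from 4.97 to 7.13 in late arrays and from 5.81 to 7.63 in early arrays, a change of -1.28 ± 0.08 (adjusted p = 6.8e-11). Its mean was 6.79 at 120 min but 5.11 and 5.12 at 240 and 480 min. PLAUR, the urokinase receptor, was called lower, with a change of -0.36 ± 0.06 (adjusted p = 4.2e-05), with means of 9.77 at 120 min and 8.16 at 20 min that go against the pooled sign. TMEM88, a transmembrane protein, was called lower, with a change of -0.43 ± 0.07 (adjusted p = 3.0e-05), with means of 5.87 at 20 min and 7.15 and 7.20 at 40 and 60 min. With 60 min left out the change in PLAUR was -0.06 (adjusted p = 0.51), and with 2 pools as the model TMEM88 was no longer called (adjusted p = 0.15). TNFAIP3 is described with its group.

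A further set of genes was raised in both pools and nearly level between them. Of genes called in 1 direction in both pools against untreated arrays, 364 had a 95% interval of the late minus early change within 0.5 of zero, and the 8 with the largest mean change are given here. The pools share the untreated arrays, against which 18% of genes were higher and 7.64% lower late, and 3.74% higher and 0.668% lower early. The array index averaged 1.24 in untreated arrays, against 1.31 in late and 1.30 in early arrays. Its part in these shares was not tested. HBEGF, a membrane-anchored ligand of EGFR, was 2.89 ± 0.13 above untreated in late arrays and 2.95 ± 0.13 above it in early arrays, a late minus early change of -0.06 with a 95% interval of -0.24 to 0.13. FOSL1, the AP-1 factor FRA1, was 2.22 ± 0.11 above untreated in late arrays and 2.17 ± 0.11 in early arrays, a change of 0.05 with an interval of -0.11 to 0.21. Both were far from constant, with HBEGF means of 8.62, 10.24, 10.75, 10.30, 9.75 and 9.40 from 20 to 480 min and a FOSL1 mean of 6.81 at 20 min and 7.27 at 480 min.

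LIF, a cytokine of the interleukin 6 family, was 1.95 ± 0.13 above untreated in late arrays and 2.10 ± 0.13 in early arrays. HAS3, a hyaluronan synthase, was 1.53 ± 0.09 above untreated in late arrays and 1.61 ± 0.09 in early arrays. IL1A, the alarmin interleukin 1 alpha, was 1.90 ± 0.18 above untreated in late arrays and 1.68 ± 0.18 in early arrays, and SPRR2A, a cornified envelope protein, 2.60 ± 0.18 and 2.43 ± 0.18 in the same order. None of these 4 was called between the pools. Within the early arrays LIF ran from 5.54 to 8.38 and HAS3 from 6.61 to 8.22. F3, or tissue factor, and IER3, an early response gene that acts on ERK and survival signalling, were called, F3 higher late by 0.27 ± 0.09 (adjusted p = 0.020) and IER3 lower with a change of -0.32 ± 0.05 (adjusted p = 3.8e-05). The near equality rests on the choice of times and on the handling of probesets. The HBEGF change was -0.68 with 20 min left out and 0.38 with 60 min left out. With dim probesets kept, HAS3 (-0.36, adjusted p = 0.00017) and LIF (-0.34, adjusted p = 0.026) were called lower. With the mean over probesets, HAS3 (-0.14) and LIF (-0.35) were called lower and SPRR2A (0.32) higher. The F3 call was lost with 20 min left out (0.03, adjusted p = 0.88), with 240 min left out (0.17, adjusted p = 0.22), with 2 pools as the model (0.27, adjusted p = 0.17) and without 60 min replicate 2 (0.24, adjusted p = 0.050), and the IER3 call with 60 min left out (-0.14, adjusted p = 0.066).

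Gene groups are given by role, as counts of members higher and lower late beside the 17.0% and 11.9% of all genes. Of 31 immediate early transcription factors tested, 26 were lower and 1 higher, with a median change of -0.91. The mean of the group ran from 7.13 to 7.77 in late arrays and from 8.14 to 8.74 in early arrays, with no overlap, and from 6.92 to 7.03 in untreated arrays. JUN, the main AP-1 partner of FOS, had values of 7.70, 8.12 and 8.49 in late arrays and of 8.69, 9.51 and 9.72 in early arrays, a change of -1.22 ± 0.07 (adjusted p = 2.4e-11). JUNB fell by 1.18 and ATF3, a stress-induced factor, by 1.24. HES1, a Notch target, had 7.35, 7.65 and 8.03 in late arrays and 8.57, 9.03 and 9.37 in early arrays, a change of -1.37 ± 0.07 (adjusted p = 1.5e-12), and its late arrays also lay below the untreated ones, at 8.10 to 8.40. The member that rose was TSC22D1, by 0.33, and 4 members, FOSL1 among them, were not called.

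Feedback inhibitors of ERK and EGFR divided evenly. Of 24 tested, 11 were higher and 10 lower, with a median of 0.01. Among MAP kinase phosphatases, DUSP5, a nuclear one specific for ERK, had values of 7.48, 7.66 and 8.49 in late arrays and of 8.52, 9.61 and 9.85 in early arrays, a change of -1.45 ± 0.08 (adjusted p = 3.9e-12), and DUSP2 fell by 1.18 ± 0.08, DUSP10 by 0.58 ± 0.09 and DUSP14 by 0.28 ± 0.08. Others of the family rose. DUSP7, a cytoplasmic ERK phosphatase, had 9.58, 9.73 and 9.84 in late arrays and 8.13, 8.55 and 9.09 in early arrays, a change of 1.16 ± 0.07 (adjusted p = 1.3e-11). DUSP6 rose by 0.87 ± 0.06 (adjusted p = 4.5e-10), with pools that overlapped and a peak mean of 10.68 at 120 min, and DUSP4, a nuclear phosphatase, by 0.48 ± 0.06 (adjusted p = 5.0e-06). The 3 Sprouty-related inhibitors SPRED1, SPRED2 and SPRED3 rose by 0.78, 0.44 and 0.62, SPRY1 rose by 0.33, and SPRY2 fell by 0.40. PHLDA1, a pleckstrin-like protein, rose by 1.04 ± 0.07 (adjusted p = 4.1e-10), and ERRFI1 (MIG6), which binds and inhibits EGFR itself, fell by 0.34. The calls of SPRY1, ERRFI1 and DUSP14 were lost with 60 min left out (0.21, -0.12 and -0.22). Those of ERRFI1 and DUSP14 were also lost with 480 min left out (-0.18 and -0.11) and with 2 pools as the model. The ERRFI1 call was lost with 240 min left out too (-0.14). That of SPRED3 was lost with only the probesets at or above the 75th percentile kept (0.00).

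Of 20 mRNA decay factors, 8 were lower and 2 higher, with a median of -0.12. ZFP36, which binds AU-rich elements and recruits deadenylases, had values of 7.11, 7.25 and 7.81 in late arrays and of 8.30, 8.52 and 9.51 in early arrays, a change of -1.32 ± 0.09 (adjusted p = 1.5e-10). ZC3H12A, an endonuclease for inflammatory mRNAs, had 7.56, 7.75 and 7.99 in late arrays and 7.99, 8.67 and 9.15 in early arrays, a change of -0.84 ± 0.07. The antiproliferative deadenylase partners TOB1 and BTG2 fell by 0.95 and 0.67, and PAN2, a catalytic deadenylase, by 0.62 ± 0.06 (adjusted p = 7.1e-08). ZFP36 and ZC3H12A did not overlap between the pools, while TOB1, BTG2 and PAN2 did. The members that rose were ZFP36L2, by 0.39, and TOB2, by 0.27. Both of these calls were lost with 20 min left out (0.18 and 0.13).

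Of 14 EGF family ligands, receptors and sheddases, 3 were higher and 2 lower. TGFA, a ligand of EGFR, had values of 8.15, 8.40 and 8.76 in late arrays and of 6.37, 7.05 and 8.30 in early arrays, a change of 1.23 ± 0.08 (adjusted p = 2.6e-10). The pools overlapped because its 60 min mean of 8.17 was near the late level. The ligands NRG1 and EREG rose by 0.77 ± 0.08 and 0.75 ± 0.08, with EREG at its peak mean of 9.37 at 120 min. EPGN, another ligand of EGFR, fell by 0.73 ± 0.16 (adjusted p = 0.0015) and varied widely within the late pool, from 7.56 to 10.40, and its call was lost with 480 min left out (-0.26). The receptor ERBB3 fell by 0.31 ± 0.06, and the change in EGFR was 0.10 with a 95% interval of -0.05 to 0.24.

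Of 21 cytokines and chemokines, 8 were higher and 4 lower, with a median of 0.17. IL24, a member of the interleukin 10 family, had values of 6.38, 6.70 and 7.17 in late arrays and of 4.97, 5.36 and 6.04 in early arrays, a change of 1.26 ± 0.09 (adjusted p = 5.4e-10). IL20, its neighbour in the same family, moved the other way, with 5.16, 5.42 and 5.59 in late arrays and 5.61, 6.88 and 7.21 in early arrays, a change of -1.20 ± 0.07 (adjusted p = 4.1e-11). The neutrophil chemoattractant CXCL8 rose by 0.65 ± 0.11 with overlapping pools, CXCL1 and CSF3 rose by 0.48 and 0.67, and CXCL2, CSF1 and TNF fell by 0.29, 0.54 and 0.36. The calls were lost for CXCL8 with 20 min left out (0.26), for CXCL2 with 40 or 60 min left out (-0.21 each) and for CSF1 with probesets at or above the 75th percentile kept (-0.12).

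NF-kB is a transcription factor family held in the cytoplasm by IkB proteins, and of 15 genes of its subunits and inhibitors, 4 were higher and 5 lower. TNFAIP3 (A20), a deubiquitinase that ends NF-kB signalling, had values of 7.26, 7.79 and 8.59 in late arrays and of 7.69, 8.91 and 9.57 in early arrays, a change of -0.97 ± 0.06 (adjusted p = 1.2e-10). Its pools overlapped, since the means climbed through 7.87, 8.96 and 9.57 in the early pool and came down through 8.44, 7.77 and 7.28 in the late pool. NFKBIA (IkB alpha) fell by 0.67 ± 0.08, and NFKBIZ, a nuclear IkB protein, by 1.11 ± 0.09 with no overlap. Of the subunits, REL fell by 1.09 ± 0.09 with no overlap, while RELA and NFKB1 rose by 0.38 ± 0.07 and 0.39 ± 0.11. BCL3 fell by 0.27, and RELB and the A20 partner TNIP1 rose by 0.29 and 0.21. The calls were lost for NFKB1 with 120 min left out (0.21), for BCL3 with 60 min left out (-0.09), and for RELB and TNIP1 with 20 min left out (0.14 each).

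Of 29 genes of proteolysis, matrix and migration, 18 were higher and 6 lower, with a median of 0.41. The mean of the group ran from 8.77 to 9.08 in late arrays and from 8.16 to 8.61 in early arrays. Besides MMP1 and MMP10, MMP9, a gelatinase, had values of 6.94, 7.46 and 8.06 in late arrays and of 5.66, 5.87 and 6.43 in early arrays, a change of 1.52 ± 0.07 (adjusted p = 4.4e-13), and MMP3 and the membrane-type MMP14 rose by 1.06 ± 0.10 and 0.45 ± 0.07. MMP13, a collagenase, and MMP2, a gelatinase, fell by 0.39 ± 0.08 and 0.25 ± 0.06, with calls that were lost with dim probesets kept for MMP13 (-0.29) and with 480 min left out for MMP2 (-0.16). The protease inhibitors SERPINE2 and TIMP1 rose by 1.5 ± 0.08 and 0.96 ± 0.10, and the metalloproteinase inhibitor TIMP3 fell by 0.35 ± 0.07. Of the integrin subunits and receptors for the matrix, ITGA2 rose by 1.13 ± 0.10, ITGA5 by 0.77 ± 0.07, ITGA3 by 0.71 ± 0.05 and the hyaluronan receptor CD44 by 0.73 ± 0.07, each with no overlap between the pools. TNS3, a tensin of focal adhesions, fell by 0.95 ± 0.08 (adjusted p = 1.1e-08), with means of 7.54, 6.84 and 6.51 through the late times, whereas the change in its relative TNS4 was 0.11 with an interval of -0.02 to 0.23.

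Of 23 SRF and YAP targets, 5 were lower and 4 higher, with a median of 0.02, and CCN1 and CCN2 stood far from the rest. TPM1, an actin-binding tropomyosin, had values of 8.07, 8.36 and 8.65 in late arrays and of 9.26, 9.55 and 9.64 in early arrays, a change of -1.14 ± 0.08 (adjusted p = 2.7e-10), and FILIP1L fell by 0.77 ± 0.07. AJUBA fell by 0.49, and VCL, TPM4, CNN3 and ZYX rose by 0.25, 0.28, 0.32 and 0.37. The calls were lost for VCL and TPM4 with 20 min left out (0.01 and 0.11), for CNN3 with probesets at or above the 75th percentile kept (0.07) and for FILIP1L with dim probesets kept (-0.04). Of 15 ID and BMP signalling genes, 5 were lower and 1 higher. ID3, an inhibitor of helix-loop-helix factors, had 7.94, 8.49 and 9.03 in late arrays and 9.17, 9.66 and 10.03 in early arrays, a change of -1.16 ± 0.07 (adjusted p = 5.5e-11). ID1 and ID2 fell by 0.74 and 0.65, while the ligand BMP2 rose by 0.99 ± 0.07 (adjusted p = 3.7e-10).

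FOXO transcription factors are active in starved cells, and of 30 of their targets and quiescence genes, 21 were lower and 2 higher, with a median of -0.47. The mean of the group ran from 6.69 to 7.11 in late arrays and from 7.38 to 7.71 in early arrays, which took in the untreated range of 7.43 to 7.57. BCL2L11 (BIM), a pro-apoptotic BH3 protein, had values of 6.02, 6.41 and 6.90 in late arrays and of 7.24, 7.73 and 8.30 in early arrays, a change of -1.29 ± 0.08 (adjusted p = 1.3e-10). CITED2, a coactivator, had 7.09, 7.63 and 7.78 in late arrays and 8.41, 8.80 and 8.93 in early arrays, a change of -1.27 ± 0.06 (adjusted p = 2.1e-13). Unlike the group mean, untreated CITED2 lay below all early arrays, at 7.72 to 7.9. ARRDC4 and TXNIP, arrestins that restrain glucose uptake, fell by 1.17 ± 0.06 and 0.91 ± 0.06. The sestrins SESN1 and SESN3, which restrain mTORC1, fell by 1.14 ± 0.13 and 1.08 ± 0.09, and KLHL24 and the cell cycle inhibitor CDKN1B (p27) fell by 1.22 ± 0.09 and 0.85 ± 0.09. All 8 of these had late arrays wholly below the early ones. The members that rose were IRS1, an adaptor of insulin signalling, by 0.95 ± 0.08 and TRIM63 by 0.31, which turned to -0.08 (not called) with dim probesets kept.

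**Figure D5:**
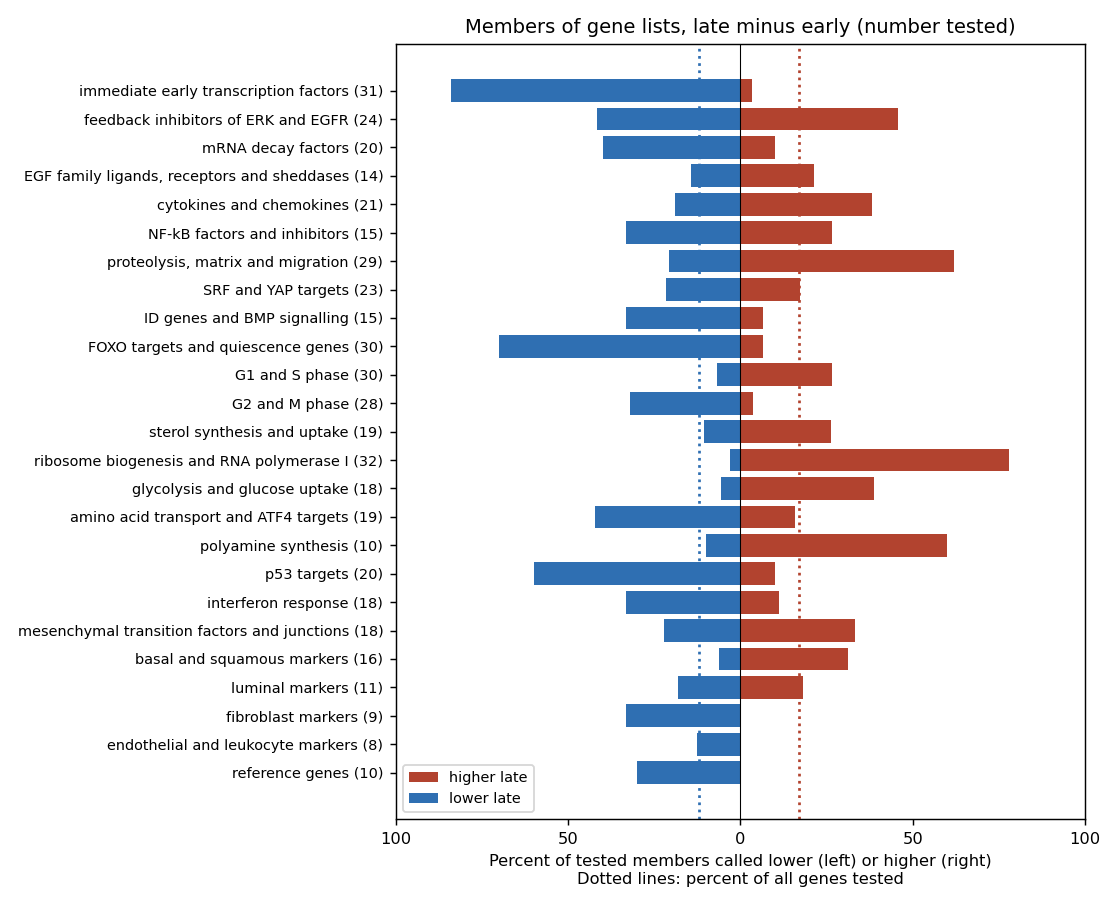
Percent of tested members called higher late (red, to the right) and lower late (blue, to the left) in 25 gene groups, with the number tested in parentheses. Dotted lines mark the share of all genes tested, 17.0% higher and 11.9% lower. Immediate early factors (26 of 31) and FOXO targets (21 of 30) stand out to the left, and ribosome biogenesis genes (25 of 32) to the right.

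Genes for ribosome production rose most uniformly, with 25 of 32 higher and 1 lower and a median of 0.56. The mean of the group ran from 8.21 to 8.55 in late arrays and from 7.78 to 8.21 in early arrays. NOP56, a core protein of box C/D small nucleolar particles, had values of 8.82, 9.0 and 9.18 in late arrays and of 7.64, 7.90 and 8.39 in early arrays, a change of 0.97 ± 0.07 (adjusted p = 1.2e-09). NOP2, an rRNA methyltransferase, and RRP9, a processome protein, each rose by 0.69 ± 0.06 with no overlap, and UTP4, also of the processome, by 0.73 ± 0.06 with pools that overlapped. POLR1B, a subunit of RNA polymerase I, rose by 0.44 ± 0.11. NCL (nucleolin) was the member that fell, by 0.34 ± 0.13 (adjusted p = 0.049). That call was lost under 14 of the 18 removals of 1 array, with changes of -0.30 to -0.35, and the POLR1B call with 240 min left out (0.32).

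Polyamines are needed for growth, and of 10 genes of their metabolism 6 were higher and 1 lower. ODC1, the rate-limiting enzyme of synthesis, had values of 9.91, 10.34 and 10.50 in late arrays and of 8.37, 9.45 and 9.88 in early arrays, a change of 0.95 ± 0.07 (adjusted p = 2.4e-09). AMD1 and SMOX rose by 0.80 ± 0.10 and 0.60 ± 0.07, and SAT1 fell by 0.55 ± 0.08 with no overlap. ODC1 pools only just parted, with late values from 9.91 and early values up to 9.88. SMOX was at its peak mean of 8.82 at 120 min and at 7.62 by 480 min, and its call was lost with 20 min left out (0.10).

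Of 18 glycolysis and glucose uptake genes, 7 were higher and 1 lower. The transporter SLC2A3 (GLUT3) had values of 7.21, 7.53 and 7.95 in late arrays and of 5.79, 6.68 and 7.14 in early arrays, a change of 1.03 ± 0.09 (adjusted p = 1.1e-08), and hexokinase HK2 rose by 0.60 ± 0.08 and PDK1, which inhibits pyruvate dehydrogenase, by 0.48 ± 0.08. SLC2A1 (GLUT1) was the member that fell, by 0.38 ± 0.05. Of 19 amino acid transport and ATF4 target genes, 8 were lower and 3 higher. The phosphate transporter SLC20A1 rose by 0.70 ± 0.10 and the kinase-like TRIB3 by 0.49 ± 0.08, while the leucine transporter subunit SLC7A5 fell by 0.34 ± 0.06 and SESN2 by 0.39 ± 0.08. Of 19 sterol synthesis and uptake genes, 5 were higher and 2 lower, and CYP51A1, SQLE, HMGCS1 and NSDHL rose by 0.46 ± 0.07, 0.41 ± 0.09, 0.40 ± 0.09 and 0.23 ± 0.07. With 20 min left out the calls of SESN2 (-0.18), HMGCS1 (0.27) and NSDHL (0.15) were lost, and with 480 min left out those of SQLE (0.25), HMGCS1 (0.28) and NSDHL (0.07).

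Of 30 G1 and S phase genes, 8 were higher and 2 lower. CCND1, the cyclin that EGF signalling induces in G1, had values of 8.24, 8.76 and 9.33 in late arrays and of 8.02, 8.14 and 8.28 in early arrays, a change of 0.63 ± 0.07 (adjusted p = 2.2e-07). The pools touched only at 120 min, where its mean was 8.34. Its partner kinase CDK6, the factor E2F3 and the cyclin CCNE1 rose by 0.69 ± 0.10, 0.65 ± 0.07 and 0.51 ± 0.09, and E2F2 fell by 0.46 ± 0.08. The replication helicase subunit MCM2 had a change of -0.15 with an interval of -0.31 to 0.02. Of 28 G2 and M phase genes, 9 were lower and 1 higher. The mitotic genes KIF20A, CCNB2 and NUSAP1 fell by 0.55 ± 0.09, 0.52 ± 0.13 and 0.40 ± 0.10, all with overlapping pools. The NUSAP1 call was lost with 60 or 480 min left out (-0.29 and -0.30).

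Of 20 p53 targets, 12 were lower and 2 higher, with a median of -0.37. The mean of the group ran from 7.70 to 7.96 in late arrays and from 8.11 to 8.27 in early arrays, with untreated arrays at 7.89 to 7.97. PLK2, a polo-like kinase, had values of 8.61, 9.21 and 9.64 in late arrays and of 10.09, 10.36 and 10.74 in early arrays, a change of -1.22 ± 0.09 (adjusted p = 1.1e-09). TP53INP1 and the DNA repair factor XPC fell by 1.11 ± 0.07 and 0.98 ± 0.08, MDM2, the ubiquitin ligase for p53, by 0.69 ± 0.07, and the inhibitor CDKN1A (p21) by 0.42 ± 0.06. The members that rose were the death receptor FAS, by 0.50 ± 0.08, and BAX, by 0.32, whose call was lost with the mean over probesets (0.10).

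Of 18 interferon response genes, 6 were lower and 2 higher, and OAS1 and ISG15 rose by 0.51 and 0.29. STAT2, IFI44L, IFI44 and IRF1 fell by 0.70 ± 0.07, 0.68 ± 0.08, 0.66 ± 0.09 and 0.50 ± 0.06. The ISG15 call was lost with dim probesets kept (0.11), with 20 or 480 min left out (0.24 and 0.21) and with the mean over probesets (0.16). Of 18 transition factors and junction genes, 6 were higher and 4 lower. ZEB1, a repressor of epithelial genes, rose by 0.51 ± 0.06 and INHBA, an activin subunit, by 0.42 ± 0.06, while OVOL1, an epithelial zinc finger factor, fell by 0.78 ± 0.08 and CLDN7, a tight junction claudin, by 0.39 ± 0.07. Epithelial CDH1 and mesenchymal VIM both rose, by 0.18 and 0.23, and the CDH1 call was lost with 20 min left out (0.14). The VIM call was lost with 480 min left out (0.07), after quantile normalisation (0.15), with probesets at or above the 75th percentile kept (0.17) and with 2 pools as the model.

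Markers of cell types were counted in the same way. Of 16 basal and squamous markers, 5 were higher and 1 lower. KRT15, a keratin of basal keratinocytes, had values of 8.11, 9.46 and 10.35 in late arrays and of 10.36, 10.48 and 10.79 in early arrays, a change of -1.26 ± 0.06 (adjusted p = 6.2e-13), with a mean of 10.18 at 120 min and 8.24 at 480 min. S100A2, KRT6B and SPRR1A rose by 0.99 ± 0.08, 0.85 ± 0.07 and 0.56 ± 0.08. Of 11 luminal markers, 2 were higher and 2 lower, and XBP1 and KRT18 rose by 0.60 ± 0.07 and 0.35 ± 0.06 while GATA3 and MUC1 fell by 0.59 ± 0.06 and 0.44 ± 0.10. The MUC1 call was lost with 480 min left out (-0.21). GATA3 means came down through 7.72, 7.27 and 6.89 within the early times.

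Of 9 fibroblast markers, 3 were lower and none higher, and these, DCN, COL1A1 and THY1, fell by 0.35, 0.29 and 0.41. Their mean ran from 6.21 to 6.34 in late arrays and from 6.30 to 6.45 in early arrays. The THY1 call was lost under 7 of the 18 removals of 1 array (-0.31 to -0.39), and its sign turned with dim probesets kept (0.07). Of 8 endothelial and leukocyte markers, CD14 was lower, with a change of -0.36 ± 0.09 (-0.02 and not called with probesets at or above the 75th percentile kept), and none was higher, and their mean ran from 6.0 to 6.12 in late arrays and from 5.84 to 6.21 in early arrays. The part of these markers in the other results was not tested. Of 10 reference genes, 3 were lower and none higher. These, POLR2A, SDHA and GUSB, fell by 0.25 ± 0.06, 0.26 ± 0.06 and 0.23 ± 0.08, so changes of that size stand within the range of such genes. The GUSB call was lost under 9 of those removals (-0.19 to -0.23), and the POLR2A call with 240 min left out (-0.18).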

How the data were processed

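Expression was measured on exon arrays of total RNA from MCF10A cells, with ribosomal RNA removed and biotin label, per the labels. The authors deposited linear intensities of 1384231 probesets on 21 arrays. PLIER and Affymetrix Expression Console 1.1 are named in the submitters' processing notes. How the values were background corrected and scaled between arrays is not given in the sources used here, nor are the tools' settings. Probesets were named through the platform annotation (354600 with 1 symbol, 14898 with several, 1014733 unnamed here), and symbols were updated through RefSeq genes of assembly GRCh38.p14 (16426 current, 2950 updated, 121 kept).

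Deposited intensities were turned to log2(intensity + 16). Probesets were kept when their mean reached the overall probeset median (5.18, or 20.2 intensity units), and a gene was the median of at least 3 kept single-gene probesets, which left 16614 genes. Limma 3.58.1 (lmFit and eBayes, R 4.3.3, data.table, version 1.17.8) fitted 1 mean per time over all 21 arrays, with 14 residual and 7.08 prior degrees of freedom and a median SD within times of 0.169. Tests were two-sided and adjusted by Benjamini-Hochberg over all genes tested. The fit was also run on simulated data with independent genes and equal means within a pool. Such data lack effects shared by the genes of an array, so that run cannot speak to them. Other steps used Python 3.11.15, pandas 2.3.3, numpy 2.4.6, scipy 1.17.1 and matplotlib 3.10.9.

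The pools, gene lists and motifs were chosen with earlier results of these data known, so counts over the 25 lists are descriptions. Named were the 15 largest changes per direction with no overlap between pools, up to 4 members per list by adjusted p, 8 genes raised in both pools and 5 per direction that varied most within a pool. Printed promoters were those of the first 3 such genes per direction that hold a CArG box, CRE or AP-1 site. Other list members, the cut at a change of 1 for promoters, and MIR21 were named after their values were seen. The settings varied were the normalisation (quantile, or median centring), the pseudocount (1 or 64), the filter (none, or the 75th percentile), the mean over probesets, a minimum of 1 probeset, the array index as covariate, array weights, 2 pools as the model, EGF arrays only, a replicate block, a minimum change of 0.5, and leaving out each array or time.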

Additional observations from a re-analysis of the deposited data

How the results depend on the processing

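Leaving out 1 array at a time gave 4236 to 4983 called genes, with 2437 to 2975 higher and 1748 to 2174 lower late, and all other settings except the required minimum change gave 2066 to 3522 higher and 1409 to 2683 lower. Requiring a change above 0.5 left 313 genes, 178 higher and 135 lower. Of the called genes, 58.9% were higher, against 49.4% after quantile normalisation and 52.6% after median centring. Genes differing among early times numbered 573 with the array index as covariate, 1321 with array weights and 524 with the mean over probesets, and 175 to 428 when 1 array was left out. Genes differing among late times numbered 1790, 3515 and 1465 in the same settings, and 633 to 1001 when 1 array was left out. With the replicate letter as a replicate block 2751 genes were higher and 1929 lower late, and 248 and 870 differed among early and late times. The labels do not say whether a letter marks a shared culture or day. Deviations of arrays with the same letter correlated at -0.541 to 0.565, with a median of -0.011. Of 21 arrays, 11 correlated best with an array of their own letter. These values come from the data and not the design, and cannot decide whether the letters pair the arrays.

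Of 185 called genes named, 141 kept their direction and call in every setting except the minimum change, under which 81 kept both. The settings named above for a lost call are not always all of those in which it was lost. Signs turned mainly in genes that were near level between the pools. FOSL1 was -0.22, -0.52 and -0.05 with 120, 20 and 240 min left out and -0.01 after quantile normalisation. HAS3 was 0.04, 0.03, 0.21 and 0.23 with 240, 40, 480 and 60 min left out and 0.23 with probesets at or above the 75th percentile. HBEGF was 0.13, 0.15 and 0.38, and LIF 0.03, 0.28 and 0.33, with 40, 480 and 60 min left out. With 20 min left out IL1A was -0.14, SPRR2A -0.22 and TNS4 -0.06. With dim probesets kept THY1 was 0.07 and TRIM63 -0.08, and with the mean over probesets VCL was -0.01. Some genes not called above were called under other settings, such as HAS3, LIF, SPRR2A and MCM2 with the mean over probesets. Of 1900 counts of list members under the alternatives, 1716 stayed within 1.5 times. The causes were not tested. Arrays with equal medians cannot show a change in total RNA, and genes near the lower signal limit have understated changes.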

Other observations

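The precursor gene of a microRNA that acts on mRNAs of ERK inhibitors and tumour suppressors was also lower late, and was chosen after its values had been seen. MIR21 had values of 9.91, 10.07 and 10.39 (lowest, median, highest) in late arrays and of 10.20, 10.56 and 10.99 in early arrays, a change of -0.49 ± 0.07 (adjusted p = 8.7e-06), and the pools overlapped. All 6 of its probesets were lower late. Its mean was 10.86 at 20 min, and its untreated arrays lay at 9.82 to 10.02, near the late level. The probesets measure the primary transcript region and do not measure the mature microRNA. That sequence is shown to identify it, from RefSeq at chr17:59841273-59841294 on the plus strand of GRCh38.p14, with the seed (bases 2 to 8) in capitals.
hsa-miR-21-5p: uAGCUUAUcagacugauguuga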
